A study of Gallus gallus with 4 samples.

Results

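The transcriptome of chick (Gallus gallus) embryos given thalidomide together with a nitric oxide donor was set against that of embryos given solvent alone. The comparison covers the 12176 genes with 20 or more reads in either of these 2 libraries, of 13081 genes on chromosomes 1 to 21 in the table used here, and 10111 of the 12176 carry a gene symbol. In the series, embryos were treated at Hamburger-Hamilton stage 8, when the neural folds begin to meet, and collected whole on day 6. The control group received DMSO, the thalidomide group 40 µg/ml thalidomide, the spermine NONOate group 10 µM spermine NONOate, and the combination group both agents at those doses. Each of the 4 groups has 1 library, and whether it holds 1 embryo or a pool is not given in the sources used here. No difference therefore has a replicate check, and every value compares libraries.

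Thalidomide is a teratogen whose receptor is cereblon, a protein that picks substrates for a ubiquitin ligase, and it redirects the ligase to proteins it does not otherwise mark. Spermine NONOate releases nitric oxide in solution, and nitric oxide acts in vessels and nerves chiefly through soluble guanylyl cyclase and cyclic GMP. By day 6 a chick embryo has a working mesonephric kidney, a growing liver, primitive red cells and a lens filled with crystallin, while the yolk sac endoderm secretes many of the plasma proteins that the liver makes later.

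The libraries held between 62576258 and 79359076 reads in genes, and markers of liver, kidney, lens, brain, muscle, heart and blood were all present in both compared libraries. Levels are given as CPM, the reads of a gene scaled to a common library size, after TMM scaling, and each log2 ratio of the combination to control has a 95% exact interval that covers counting error only. Ratios below are log2 ratios of the combination to control unless another library is named, and a number alone in parentheses after a gene is that ratio. A call of higher or lower rests on size alone and needs a 2-fold ratio, 20 reads in the higher library and an interval that excludes no change. Ratios of the other libraries to control are given beside those of the combination for orientation. They share the control library, so likeness between them is not independent.

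By this rule 1738 genes, or 14.3% of those tested, differed between the combination and control. Of these, 1238 (10.2%) were higher in the combination and 500 (4.11%) were lower. The median gene had a log2 ratio of 0.00, and the middle 50% of genes lay between -0.40 and 0.48. Most differences were moderate, with 1001 higher and 449 lower genes between 2-fold and 4-fold. At 16-fold or more there were 31 higher and 7 lower genes. Calls were most frequent among genes of low level. With genes ordered by mean level and cut into 10 classes of equal size, 37.8% of class 1, the lowest, were called, against 5.34% of class 9 and 8.29% of class 10. Class 10, the highest, was the only one with a larger share lower (5.25%) than higher (3.04%). Scaling to total counts, in place of TMM, added 0.22 to every log2 ratio and to the median of all genes. It gave 1826 higher and 255 lower genes, so that 87.7% of the calls were higher against 71.2% with TMM, and lower calls at a ratio above -1.22 were lost.

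**Figure D1:**
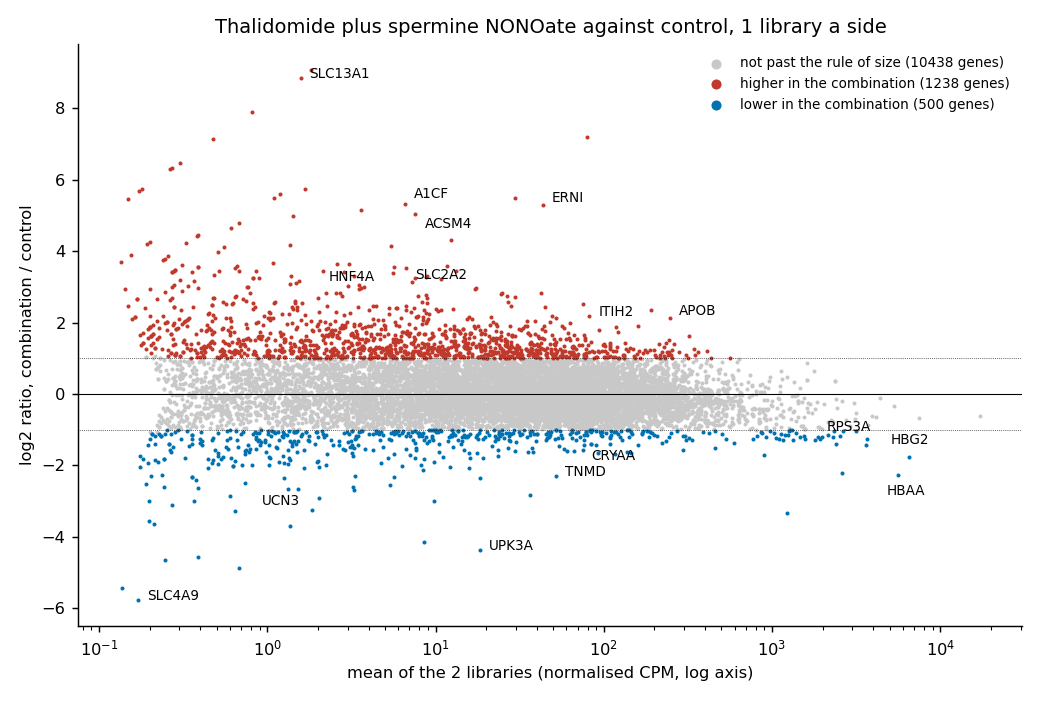
Log2 ratio of the combination to control (vertical axis) against the mean level of the 2 libraries in normalised CPM (horizontal log axis), 1 point per gene, for 12176 genes. Red points (1238 genes) were higher and blue points (500) lower by the rule of size, dotted lines mark a 2-fold difference, and haemoglobin and ribosomal protein genes (HBAA, HBG2, RPS3A) lie below control at the high end of the scale.

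The genes furthest above control were of several kinds. SLC13A1, a sulfate transporter of the kidney tubule, had 0 reads in control, 116 with thalidomide, 57 with spermine NONOate and 245 in the combination, which makes the combination at least 77.0-fold higher than control at a floor of 3 counts. XDH, the xanthine dehydrogenase of purine breakdown, stood at 0.574 CPM in control, 3.22 with thalidomide, 8.44 with spermine NONOate and 10.3 in the combination (log2 4.15, 3.72 to 4.65). Both genes were lowest in the control library. ACSM4, a medium-chain acyl-CoA synthetase, stood at 0.437 CPM in control, 2.55 with thalidomide, 20.8 with spermine NONOate and 14.7 in the combination (log2 5.05, 4.57 to 5.63), so that its level was high in both libraries that received the nitric oxide donor and intermediate with thalidomide alone. The opposite arrangement was seen in MUC4, a membrane mucin, with 3 reads in control, 1626 with thalidomide, 45 with spermine NONOate and 181 in the combination (log2 5.61, 4.26 to 8.12), where thalidomide alone was far above the other libraries. AIRE, a transcriptional regulator known from the thymus, stood at 0.137 CPM in control, 2.64 with thalidomide, 0.618 with spermine NONOate and 2.59 in the combination (log2 4.18, 3.33 to 5.33). ENS-2, one of a repeated family of chicken genes whose reads can be shared between copies, had 6 reads in control, 103 with thalidomide, 5 with spermine NONOate and 216 in the combination (log2 4.97, 3.94 to 6.55). It was high in both libraries that received thalidomide and near the control level with the donor alone.

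The genes furthest below control were of several kinds too. UPK3A, a uroplakin of the urothelium, stood at 35.1 CPM in control, 1.03 with thalidomide, 1.44 with spermine NONOate and 1.70 in the combination (log2 -4.37, -4.63 to -4.12), and all 3 treated libraries were far below control. TSPAN10, a tetraspanin of pigment epithelium, had 187 reads in control, 17 with thalidomide, 69 with spermine NONOate and 15 in the combination (log2 -3.68, -4.59 to -2.97). CCLI10 and CCLI7, chemokine genes, had ratios of -4.14 and -2.61 in the combination and of -4.62 and -3.30 with thalidomide alone. TNMD, a tendon membrane protein, stood at 85.9 CPM in control, 7.94 with thalidomide, 61.1 with spermine NONOate and 17.6 in the combination (log2 -2.29, -2.38 to -2.21). SERPINB14, which encodes ovalbumin, stood at 9.44 CPM in control, 2.17 with thalidomide, 10.2 with spermine NONOate and 1.88 in the combination (log2 -2.32, -2.60 to -2.07). These last 4 genes were low in the libraries that received thalidomide and nearer to control with the donor alone. MMP13, a collagenase of cartilage and bone, had 169 reads in control, 57 with thalidomide, 50 with spermine NONOate and 28 in the combination (log2 -2.66, -3.31 to -2.10), the lowest of the 4 libraries being the combination.

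Transcription factors of the liver and gut endoderm were higher in the combination as a group. Of 15 tested, 8 were higher and 0 lower, with a median ratio of 1.41. Over all genes tested 10.2% were higher and the median was 0.00. HNF4A, a nuclear receptor that drives hepatocyte genes, stood at 0.874 CPM in control, 5.0 with thalidomide, 6.95 with spermine NONOate and 10.4 in the combination (log2 3.56, 3.20 to 3.96). For this factor the control library was lowest, the single treatments lay between, and the combination was highest. Other members called were HNF4G (2.83), the bile acid receptor gene NR1H4 (1.95), GATA4 (1.81), ONECUT1 (1.68) and PROX1 (1.41). The regulators that were not called included HHEX (0.00), CEBPA (-0.13) and GATA6 (-0.25). In whole embryos a larger number of cells of a type and more RNA per cell cannot be told apart, here and for every tissue below.

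**Figure D2:**
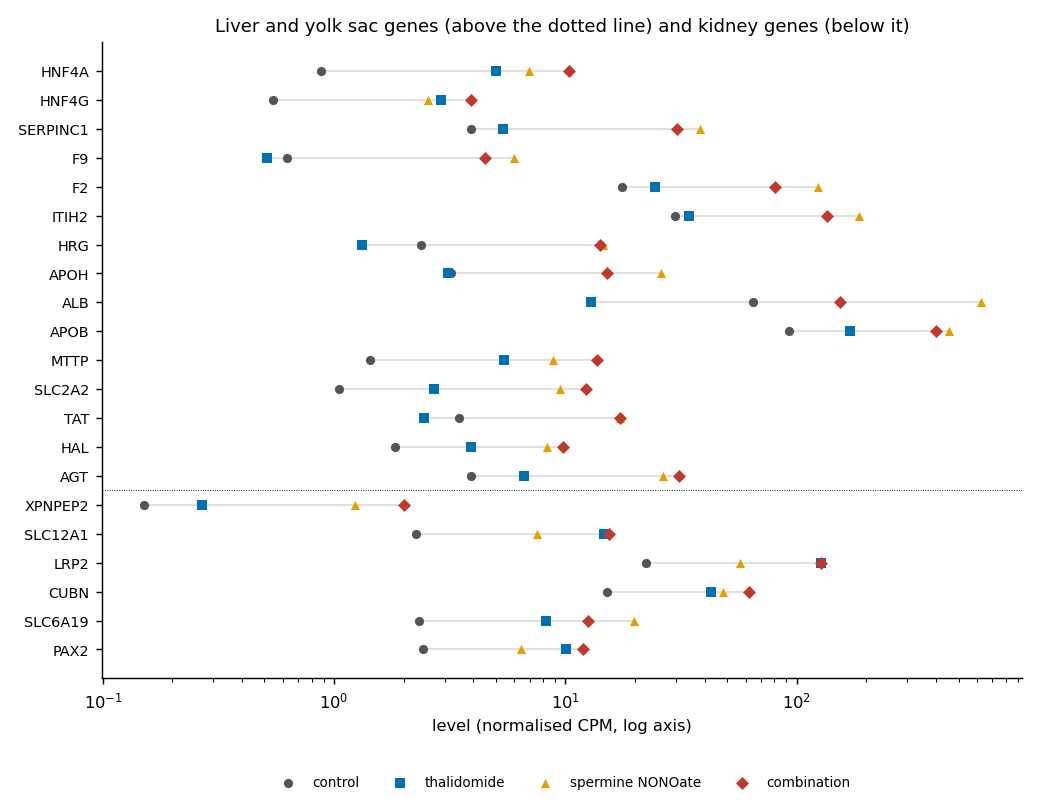
Level of 15 liver and yolk sac genes and 6 kidney genes in each of the 4 libraries (horizontal log axis, normalised CPM), with control as grey circles, thalidomide as blue squares, spermine NONOate as orange triangles and the combination as red diamonds. The combination lies to the right of control for all 21 genes. Thalidomide alone lies to the left of control for ALB, HRG, F9 and TAT and just left of it for APOH.

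Secreted proteins of liver and yolk sac differed by class. Among clotting factors 16 of 23 were higher and 1 lower, with a median of 1.20. SERPINC1, which encodes antithrombin, stood at 3.92 CPM in control, 5.36 with thalidomide, 38.0 with spermine NONOate and 30.3 in the combination (log2 2.95, 2.77 to 3.13). F9, clotting factor IX, stood at 0.628 CPM in control, 0.510 with thalidomide, 5.98 with spermine NONOate and 4.51 in the combination (log2 2.83, 2.40 to 3.32). F2, prothrombin, stood at 17.6 CPM in control, 24.5 with thalidomide, 123 with spermine NONOate and 80.5 in the combination (log2 2.19, 2.11 to 2.28). None of the 3 passed the rule with thalidomide alone, and all were highest with the donor alone. The fibrinogen chain genes had ratios of 1.79 (FGA), 0.56 (FGB) and 1.66 (FGG), and that of PLG, plasminogen, was 1.78. F13A1, a clotting factor subunit also made by macrophages and platelets, was lower (log2 -1.34, -1.43 to -1.25).

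Plasma carrier genes gave a less uniform picture, with 4 of 11 higher, 0 lower and a median of 0.63. After the values were seen, 1 lower gene that encodes no carrier was taken out of this list. The count of 0 lower and the list medians depend on that removal. ALB, serum albumin, stood at 64.5 CPM in control, 12.9 with thalidomide, 623 with spermine NONOate and 154 in the combination (log2 1.25, 1.20 to 1.3). HRG, histidine-rich glycoprotein, stood at 2.38 CPM in control, 1.32 with thalidomide, 14.5 with spermine NONOate and 14.1 in the combination (log2 2.57, 2.34 to 2.81). AMBP, the precursor of alpha-1-microglobulin, stood at 15.7 CPM in control, 4.30 with thalidomide, 81.3 with spermine NONOate and 34.9 in the combination (log2 1.15, 1.05 to 1.25). In each case thalidomide alone lay below control, the donor alone was highest or level with the combination, and the combination lay above control. The carriers RBP4, for retinol, and TTR, for thyroid hormone, had ratios of -0.14 and 0.57 in the combination, of -2.06 and -0.66 with thalidomide, and of 1.80 and 2.06 with the donor. Neither was called in the combination. As a list, the carriers had a median of -1.87 with thalidomide alone and of 2.06 with the donor alone.

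The plasma protease inhibitors were split, with 4 of 15 higher (26.7%) and 3 lower (20%), against 10.2% and 4.11% over all genes. ITIH2, an inter-alpha-trypsin inhibitor heavy chain, stood at 29.8 CPM in control, 34 with thalidomide, 186 with spermine NONOate and 134 in the combination (log2 2.17, 2.11 to 2.24). A2M, alpha-2-macroglobulin, had a ratio of 1.66. SERPINA1, alpha-1-antitrypsin, stood at 9.21 CPM in control, 0.340 with thalidomide, 73.8 with spermine NONOate and 1.57 in the combination (log2 -2.55, -2.84 to -2.27), so it was far above control with the donor alone and below control in both libraries that received thalidomide. Complement genes were 4 higher (26.7%) and 2 lower (13.3%) of 15, against the same 10.2% and 4.11%. C5 (1.93), MBL2, mannose-binding lectin (1.82), and VTN, vitronectin (1.18), were higher, whereas C1S (-1.15) and the macrophage gene C1QB (-1.03) were lower.

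Genes of several steps of lipoprotein assembly were higher, with 7 of 16 genes higher, 0 lower and a median of 0.87. APOB, the structural protein of very low density lipoprotein, stood at 92.3 CPM in control, 169.8 with thalidomide, 457 with spermine NONOate and 402 in the combination (log2 2.12, 2.08 to 2.16). MTTP, which loads APOB with lipid, stood at 1.43 CPM in control, 5.43 with thalidomide, 8.82 with spermine NONOate and 13.7 in the combination (log2 3.25, 2.96 to 3.56). A1CF, a cofactor of APOB mRNA editing in mammals, stood at 0.314 CPM in control, 5.32 with thalidomide, 5.03 with spermine NONOate and 12.9 in the combination (log2 5.33, 4.76 to 6.02), with the combination the highest of the 4 libraries. The share of all reads in these 16 genes was 0.0197% of reads in control, 0.0423 with thalidomide, 0.0724 with spermine NONOate and 0.0758 in the combination. The 7 higher genes include the endocytic receptor LRP2, which is also counted with the kidney genes below. LRP2 alone had 1639 of the 15638 list reads in control and 9017 of 28321 with thalidomide. With spermine NONOate it had 3412 of 45324, and in the combination 9902 of 54838.

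Genes of liver metabolism were in part higher as well. Of 30 genes of gluconeogenesis and amino acid breakdown, 12 were higher and 0 lower, with a median of 0.76. TAT, tyrosine aminotransferase, stood at 3.47 CPM in control, 2.45 with thalidomide, 17.3 with spermine NONOate and 17.3 in the combination (log2 2.31, 2.12 to 2.52). HAL, the histidine ammonia lyase, stood at 1.83 CPM in control, 3.91 with thalidomide, 8.34 with spermine NONOate and 9.76 in the combination (log2 2.41, 2.15 to 2.69). TAT lay near its control level with thalidomide alone, HAL was above it, and both were highest in the 2 libraries that received the donor. PCK1, which opens gluconeogenesis, had a ratio of 1.20. SLC2A2, the glucose transporter of hepatocytes and beta cells, stood at 1.05 CPM in control, 2.69 with thalidomide, 9.50 with spermine NONOate and 12.3 in the combination (log2 3.54, 3.21 to 3.90). Of 41 genes of fatty acid oxidation and peroxisomes, 3 (7.32%, fewer than the 10.2% over all genes) were higher, among them the carnitine transferase CPT1A (1.17) and the receptor PPARA (1.07), and the list median was -0.14 (0.07 under scaling to total counts).

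In the list of bile acid and xenobiotic enzymes 10 of 26 were higher and 1 lower. FMO4, a flavin monooxygenase, stood at 0.669 CPM in control, 1.29 with thalidomide, 5.19 with spermine NONOate and 4.78 in the combination (log2 2.82, 2.40 to 3.30). CYP2H1, a drug-metabolising cytochrome P450 of chicken, stood at 1.67 CPM in control, 7.02 with thalidomide, 6.03 with spermine NONOate and 8.93 in the combination (log2 2.42, 2.14 to 2.71). CYP7A1, the rate-limiting enzyme of bile acid synthesis, had 9 reads in control and 43 in the combination (log2 2.11, 1.11 to 3.39). AKR1D1, a steroid and bile acid reductase, stood at 687 CPM in control, 348 with thalidomide, 421 with spermine NONOate and 316 in the combination (log2 -1.12, -1.14 to -1.10), below control in all 3 treated libraries. AGT, the liver-derived precursor of angiotensin, was 7.89-fold higher (log2 2.98, 2.81 to 3.16).

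Kidney genes were higher in the majority of cases. Of 34 tested, 21 (61.8%) were higher and 1 lower, with a median of 1.25. That median is the same with SLC13A1 at its lower bound. LRP2 and CUBN, which encode the endocytic receptors megalin and cubilin of the proximal tubule, were both higher. LRP2 stood at 22.4 CPM in control, 128 with thalidomide, 57.0 with spermine NONOate and 127 in the combination (log2 2.51, 2.43 to 2.59), and CUBN stood at 15.1 CPM in control, 42.7 with thalidomide, 48.1 with spermine NONOate and 62.4 in the combination (log2 2.04, 1.95 to 2.14). SLC12A1, the salt transporter targeted by loop diuretics, stood at 2.25 CPM in control, 14.6 with thalidomide, 7.55 with spermine NONOate and 15.3 in the combination (log2 2.76, 2.53 to 3.01). SLC6A19, a neutral amino acid transporter of kidney and gut, stood at 2.34 CPM in control, 8.22 with thalidomide, 19.8 with spermine NONOate and 12.5 in the combination (log2 2.41, 2.18 to 2.66). PAX2, a regulator of nephron formation, also expressed in the midbrain and ear, stood at 2.42 CPM in control, 10.0 with thalidomide, 6.45 with spermine NONOate and 11.9 in the combination (log2 2.29, 2.06 to 2.54). The control library was the lowest of the 4 for each of these 5 genes. AQP1, a water channel also abundant in red cells and vessels, was the 1 lower member (log2 -1.02, -1.08 to -0.97). With thalidomide alone 16 of the same genes were higher than control and 1 lower, and with the donor alone 19 and 0. In the intestine list 5 of 16 were higher (31.2%) and 2 lower (12.5%), against 10.2% and 4.11% over all genes. ACSM4 and SUSD2 (5.16), both among the genes furthest above control, are counted in it. Its members were chosen with earlier results of these data known. LCT, lactase, had a ratio of 1.61, and VIL1, the brush border protein villin, one of -1.21.

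Solute carriers were examined as a family of 212 tested genes, of which 57 were higher and 2 lower, with a median of 0.27. Besides transporters of kidney and liver they included neuronal ones, such as SLC17A6, a vesicular glutamate transporter (1.26), SLC6A5, a glycine transporter (2.34), and SLC12A5, the chloride exporter of mature neurons (1.88). SLC4A9, a bicarbonate exchanger, was lower, with 25 reads in control, 5 with thalidomide, 0 with spermine NONOate and 0 in the combination, which is at least 8.84-fold lower than control.

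Ion channel genes of nerve and heart were higher in 27 of 69 cases and lower in 0, with a median of 0.88. GRIN2B, an NMDA receptor subunit, stood at 7.46 CPM in control, 12.8 with thalidomide, 7.58 with spermine NONOate and 24.4 in the combination (log2 1.71, 1.57 to 1.85). This gene was highest in the combination. SCN1A, a sodium channel subunit, had ratios of 1.49 in the combination, 1.37 with thalidomide and 1.40 with the donor. Among general neuronal genes the differences were smaller, with 6 of 29 higher, 0 lower and a median of 0.38. DCX, doublecortin of migrating neurons, stood at 67.1 CPM in control, 205 with thalidomide, 55.3 with spermine NONOate and 253 in the combination (log2 1.92, 1.87 to 1.96), whereas STMN2 (-0.14), SNAP25 (-0.17) and GAP43 (0.22) were not called. Axon guidance genes had a median of 0.56, with 3 of 46 called (6.52%, fewer than the 10.2% over all genes), namely PLXNB1 (1.90), UNC5C (1.58) and EPHA7 (1.02). Among neural progenitor genes the share called higher, 11.5%, was near that over all genes, and the 3 higher members of 26 were PAX2, OLIG3 (2.14) and GBX2 (1.90), which pattern the spinal cord and hindbrain, while the progenitor genes SOX2 (0.55) and PAX6 (-0.36) were not called.

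**Figure D3:**
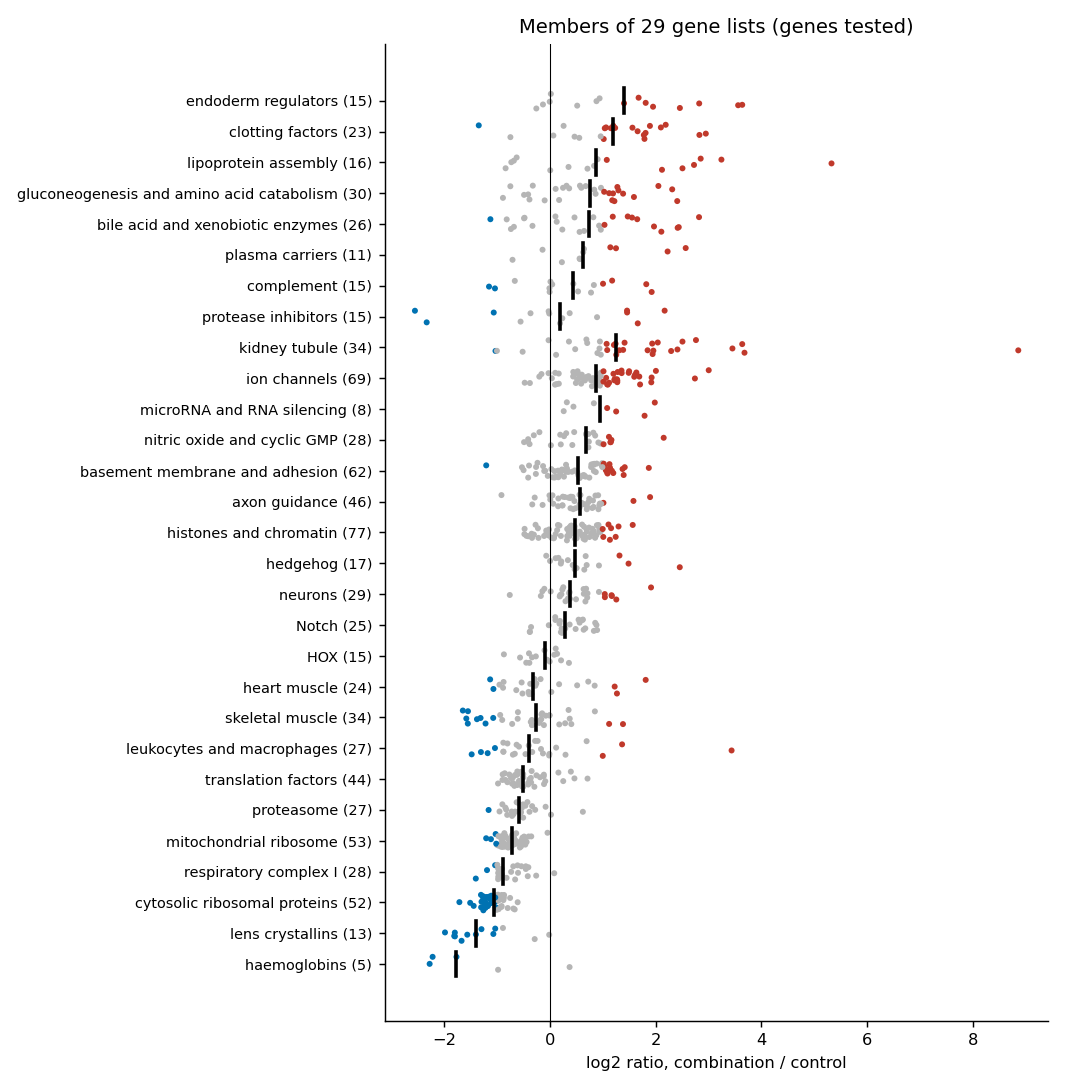
Log2 ratio of the combination to control for each tested member of 29 gene lists, with the number tested in parentheses. Red points were higher and blue points lower by the rule of size, grey points were not called, and black bars are list medians, which run from 1.41 for endoderm regulators to -1.76 for haemoglobins.

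The targets of the 2 agents were examined next. CRBN, cereblon itself, stood at 19.3 CPM in control, 25.5 with thalidomide, 17.2 with spermine NONOate and 25.2 in the combination (log2 0.39, 0.29 to 0.49), and DDB1, its ligase partner, had a ratio of 0.23. Of 19 genes of the ligase and of proteins recruited to it by thalidomide-like drugs, 1 was higher, IKZF2 (log2 1.29, 1.05 to 1.54), and 1 lower, the RING subunit RBX1 (log2 -1.06, -1.11 to -1.01). Each is 5.26% of the list, against 10.2% higher and 4.11% lower over all genes. The RBX1 call was lost under scaling to total counts. The list median was -0.03, or 0.19 under scaling to total counts. SALL4, a zinc finger protein degraded in the presence of thalidomide, stood at 12.7 CPM in control, 31.9 with thalidomide, 11.5 with spermine NONOate and 21.3 in the combination and was not called in the combination (log2 0.75, 0.63 to 0.87). TP63, another such protein, had a ratio of -0.88. These are mRNA levels, and protein was not measured.

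Among genes of nitric oxide and cyclic GMP signalling 6 of 28 genes were higher and 0 lower, with a median of 0.69 in the combination, 0.39 with thalidomide and -0.01 with the donor. The share called higher in the combination was 21.4%, against 10.2% over all genes. GUCY1A2, an alpha subunit of soluble guanylyl cyclase, stood at 3.10 CPM in control, 11.4 with thalidomide, 2.12 with spermine NONOate and 13.8 in the combination (log2 2.15, 1.95 to 2.37). PDE5A, which degrades cyclic GMP, stood at 40.0 CPM in control, 83.1 with thalidomide, 43.0 with spermine NONOate and 88.7 in the combination (log2 1.15, 1.09 to 1.21). Both were high in the 2 libraries that received thalidomide and near or below control with the donor alone. The partner subunits GUCY1A3 and GUCY1B3 had ratios of -0.19 and 0.27, and the synthase gene NOS2 stood at 20.1 CPM in control, 45.3 with thalidomide, 28.8 with spermine NONOate and 33.5 in the combination (log2 0.74, 0.65 to 0.83) without passing the rule. SLC7A2, an arginine transporter, was higher (1.02). Among 32 oxidative stress genes 0 were higher and 3 (9.38%, against 4.11% over all genes) lower, with a median of -0.48. HMOX1, the inducible haem oxygenase, stood at 79.7 CPM in control, 32.1 with thalidomide, 64.0 with spermine NONOate and 29.2 in the combination (log2 -1.45, -1.52 to -1.38), and the metallothionein gene MT3 and the peroxidase gene GPX7 had ratios of -1.37 and -1.23.

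Among the patterning pathways, the hedgehog and FGF lists had larger shares of higher genes (17.6% and 22.6%) than all genes tested (10.2%), and the WNT, BMP, Notch and HOX lists had smaller ones. These shares were not matched for level, and among all genes of low level (classes 1 to 3) 15.9% to 26% were higher. The FGF list median was 0.02, with 16 genes above 0 and 15 below. Among hedgehog genes 3 of 17 were higher and 0 lower. The ligand SHH stood at 6.72 CPM in control, 24.2 with thalidomide, 14.2 with spermine NONOate and 18.9 in the combination (log2 1.49, 1.34 to 1.64). SCUBE1, which helps release the ligand, stood at 8.59 CPM in control, 61.1 with thalidomide, 10.1 with spermine NONOate and 47.2 in the combination (log2 2.46, 2.34 to 2.58). The transcriptional mediator GLI3 stood at 37.9 CPM in control, 86.5 with thalidomide, 22.0 with spermine NONOate and 94.6 in the combination (log2 1.32, 1.26 to 1.38). SHH was above control in all 3 treated libraries, whereas GLI3 was below control with the donor alone. The receptor component SMO had a ratio of 0.01. In the FGF list 7 of 31 were higher and 2 lower. KL, the coreceptor klotho known from kidney, had 22 reads in control, 50 with thalidomide, 103 with spermine NONOate and 207 in the combination (log2 3.12, 2.51 to 3.85). The receptor FGFR3 stood at 44.4 CPM in control, 93.7 with thalidomide, 39.1 with spermine NONOate and 122 in the combination (log2 1.46, 1.41 to 1.52). The ligand FGF8 stood at 1.09 CPM in control, 3.26 with thalidomide, 2.15 with spermine NONOate and 2.82 in the combination (log2 1.36, 0.99 to 1.75). KL and FGFR3 were highest in the combination, FGF8 with thalidomide alone. The ligands FGF20 (log2 -2.63, -3.99 to -1.61) and FGF7 (log2 -1.10, -1.34 to -0.86) were lower. In the BMP list 3 receptor genes were higher, with ratios of 1.41 for the type II receptor BRK-3, 1.33 for BMPR1B and 1.32 for the activin receptor ACVR2B, and the BMP antagonists NOG (-1.18) and SOSTDC1 (-1.16) were lower. These 5 were the called members of 45, and the list median was 0.08. The share called lower, 4.44%, was near the 4.11% over all genes. Both antagonist calls were lost under scaling to total counts.

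WNT genes were called in both directions, 2 higher and 4 lower of 46. The coreceptor LRP6 stood at 18.9 CPM in control, 66.2 with thalidomide, 13.6 with spermine NONOate and 76.4 in the combination (log2 2.02, 1.93 to 2.10), high in both libraries that received thalidomide. WNT8B, a ligand of the forebrain, had a ratio of 1.84. The epithelial ligands WNT6 and WNT10A had ratios of -1.31 and -1.18, and the secreted antagonist SFRP4 one of -1.71. No member of the Notch list (25 genes, median 0.29) or of the HOX clusters (15 genes, median -0.10, or 0.12 under scaling to total counts) was called. The receptor gene NOTCH1 stood at 289 CPM in control, 406 with thalidomide, 174 with spermine NONOate and 525 in the combination (log2 0.86, 0.84 to 0.88). In the limb patterning list only SHH, GLI3 and FGF8 of 39 were called, and its median was -0.23. The share of limb patterning genes called higher, 7.69%, was below that over all genes.

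Matrix and adhesion genes differed by list. Of 62 genes of basement membrane, integrins and cadherins 13 were higher and 1 lower, with a median of 0.53. FAT3, a giant protocadherin, stood at 50.6 CPM in control, 154 with thalidomide, 39.5 with spermine NONOate and 185 in the combination (log2 1.87, 1.82 to 1.93). COL4A1, a basement membrane collagen chain, stood at 138 CPM in control, 274 with thalidomide, 153 with spermine NONOate and 294 in the combination (log2 1.09, 1.06 to 1.13). Both were high in the libraries that received thalidomide. In cartilage, ACAN, the proteoglycan aggrecan, stood at 38.5 CPM in control, 84.4 with thalidomide, 48.3 with spermine NONOate and 115 in the combination (log2 1.58, 1.52 to 1.65), and SOX6, a chondrocyte regulator, had a ratio of 1.61. The cartilage collagens COL9A1 (0.22) and COL11A1 (0.27) were not called. IBSP, bone sialoprotein, was lower, with 48 reads in control, 0 with thalidomide, 43 with spermine NONOate and 6 in the combination (log2 -2.98, -4.60 to -1.86). In the cartilage and bone list 5 of 20 genes were higher (25%) and 2 lower (10%), against 10.2% and 4.11% over all genes. SPP1, osteopontin, was higher (2.11) and the matrilin gene MATN3 was lower (-1.16), so calls in this list went both ways. Among tendon and fibrous matrix genes TNMD and ASPN (-1.46) were lower and TNC, tenascin C (1.01), was higher, of 28. The shares were 7.14% lower and 3.57% higher, against 4.11% and 10.2% over all genes.

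Skeletal muscle genes were lower in 8 of 34 cases and higher in 2, with a median of -0.26. The shares were 23.5% lower and 5.88% higher, against 4.11% and 10.2% over all genes. PVALB, the calcium buffer parvalbumin, stood at 140.3 CPM in control, 30.1 with thalidomide, 109.7 with spermine NONOate and 45.0 in the combination (log2 -1.64, -1.70 to -1.59). TNNI2, fast troponin I, stood at 86.6 CPM in control, 18.9 with thalidomide, 68.8 with spermine NONOate and 29.6 in the combination (log2 -1.55, -1.62 to -1.48). CAV3, the muscle caveolin, had a ratio of -1.57. PVALB and TNNI2 were lowest with thalidomide alone and lay between that library and control in the combination. The heart list had 2 lower members, the ventricular light chains MYL2 (log2 -1.12, -1.16 to -1.09) and MYL3 (log2 -1.06, -1.11 to -1.02), and 3 higher ones, of 24. Among the higher were the pacemaker channel HCN4 (1.27) and GATA4, also counted with the endoderm regulators. The shares were 12.5% higher, near the 10.2% over all genes, and 8.33% lower, against 4.11%. In the smooth muscle list, where the donor alone had a median of -0.60, the combination had a median of 0.11. MYH11, smooth muscle myosin, stood at 370.3 CPM in control, 741 with thalidomide, 53.7 with spermine NONOate and 408 in the combination (log2 0.14, 0.12 to 0.16), so that the low level seen with the donor alone was absent from the combination.

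Crystallin genes, which fill the lens, were lower in the combination. All 13 crystallin genes tested had ratios below 0 (-1.98 to -0.01), and 10 were called lower, with a median of -1.39. CRYAA, alpha A crystallin, stood at 112 CPM in control, 11.4 with thalidomide, 64.6 with spermine NONOate and 38.0 in the combination (log2 -1.56, -1.62 to -1.50). ASL1, delta crystallin, the main lens protein of birds, stood at 3499 CPM in control, 596 with thalidomide, 1958 with spermine NONOate and 1331 in the combination (log2 -1.39, -1.41 to -1.38). CRYBB1, a beta crystallin, stood at 24.8 CPM in control, 4.66 with thalidomide, 13.1 with spermine NONOate and 7.17 in the combination (log2 -1.79, -1.93 to -1.66). Each of the 3 was highest in control and lowest with thalidomide alone, and the combination lay between that library and the donor alone. Among 15 other genes of lens fibres and their regulators the median was -0.33, with 2 lower and 1 higher. The shares were 13.3% lower and 6.67% higher, against 4.11% and 10.2% over all genes. The fibre cell filament gene BFSP1 (-1.41) and the lens regulator FOXE3 (-1.62) were lower and the regulator PROX1 (1.41) was higher, while the fibre cell connexin GJA3 (0.40) and PAX6 were not called. In the retina list RBP3, the interphotoreceptor retinoid carrier (-1.05), and TSPAN10 were lower and RPE65, the visual cycle isomerase, was higher (1.62), of 18. These are shares of 11.1% lower and 5.56% higher.

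Red cell genes were lower in part. Of 5 haemoglobin genes 3 were lower. HBAA, an alpha chain, stood at 9259 CPM in control, 987 with thalidomide, 9489 with spermine NONOate and 1922 in the combination (log2 -2.27, -2.28 to -2.26). HBAD, the alpha D chain, stood at 4299.7 CPM in control, 476 with thalidomide, 4111 with spermine NONOate and 928 in the combination (log2 -2.21, -2.22 to -2.20). HBG2, a beta-type chain, stood at 10034 CPM in control, 1450.5 with thalidomide, 9187 with spermine NONOate and 2960.1 in the combination (log2 -1.76, -1.77 to -1.75). HBZ, an embryonic zeta chain, had a ratio of 0.38 and HBE -0.97. Copies of these genes can share reads, so single values are uncertain. In the erythroid list RHAG, a red cell membrane protein, stood at 17.5 CPM in control, 0.695 with thalidomide, 24.5 with spermine NONOate and 2.19 in the combination (log2 -3.0, -3.24 to -2.77), and EPB42, which anchors the membrane skeleton, had a ratio of -1.63. TFRC, the transferrin receptor, was higher (1.09), and the other 14 genes of 17 were not called. With the donor alone HBAA, HBAD and RHAG did not pass the rule, and thalidomide alone was lower than the combination.

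Of 27 leukocyte genes 4 (14.8%, against 4.11% over all genes) were lower and 3 (11.1%, near the 10.2% over all genes) higher, with a median of -0.40. MARCO, a scavenger receptor of macrophages, stood at 7.20 CPM in control, 2.51 with thalidomide, 2.14 with spermine NONOate and 2.59 in the combination (log2 -1.47, -1.72 to -1.24), low in all 3 treated libraries. SPI1, the myeloid regulator PU.1, stood at 13.7 CPM in control, 5.83 with thalidomide, 11.4 with spermine NONOate and 5.57 in the combination (log2 -1.3, -1.47 to -1.14). MPO, myeloperoxidase, went the other way, with 26 reads in control, 333 with thalidomide, 32 with spermine NONOate and 304 in the combination (log2 3.44, 2.88 to 4.10), and was high in the libraries that received thalidomide. Chemokine and cytokine genes were 6 lower (17.6%, against 4.11% over all genes) and 0 higher of 34. IL15, a growth factor of natural killer and T cells, had 155 reads in control, 69 with thalidomide, 144 with spermine NONOate and 32 in the combination (log2 -2.34, -2.96 to -1.80). The endothelial list had a median of 0.40, with STAB2, a scavenger receptor of sinusoids (1.82), and PROX1 higher and LYVE1, a lymphatic marker, lower (-1.18), of 27. The 7.41% called higher there was below the share over all genes. VEGFA stood at 10.3 CPM in control, 14.0 with thalidomide, 12.6 with spermine NONOate and 15.3 in the combination (log2 0.57, 0.43 to 0.70) and its receptor KDR had a ratio of 0.45. Neither was called.

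Ribosomal protein genes were lower by moderate amounts, and other lists of the basic cell machinery had medians below 0 with few members called. All 52 cytosolic ribosomal protein genes tested were below 0 (-1.71 to -0.60), with 31 called lower and a median of -1.06. RPL29 stood at 1368 CPM in control, 511 with thalidomide, 1340.1 with spermine NONOate and 419 in the combination (log2 -1.71, -1.72 to -1.69). RPS3A stood at 5279.6 CPM in control, 2236 with thalidomide, 5061 with spermine NONOate and 1952 in the combination (log2 -1.44, -1.44 to -1.43). Both were low in the libraries that received thalidomide and near control with the donor alone. All 53 mitochondrial ribosomal protein genes were also below 0, but 4 passed the rule, and the median was -0.71. The share called lower was 7.55% in the mitochondrial ribosome, against 4.11% over all genes. Respiratory complex I had a median of -0.89 with 3 of 28 (10.7%) lower, among them NDUFB2 (-1.40). For complexes II to IV the median was -0.75 with 4 of 27 (14.8%) lower, among them COX6C (-1.29). The proteasome had a median of -0.59 with 1 of 27 (3.70%) lower, and translation factors a median of -0.50 with none of 44 called. Under scaling to total counts 14 ribosomal protein genes stayed lower, none of the mitochondrial ribosome or the proteasome did, and complex I and complexes II to IV each kept 1.

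Chromatin regulators and the RNA silencing machinery had medians above 0. Of 77 chromatin genes 8 (10.4%, close to the 10.2% over all genes) were higher and 0 lower, with a median of 0.48. TET1, which oxidises methylated cytosine, stood at 20.6 CPM in control, 65.2 with thalidomide, 14.2 with spermine NONOate and 61.2 in the combination (log2 1.57, 1.49 to 1.65). All 8 RNA silencing genes tested had ratios above 0, and 4 were called, among them the scaffold gene TNRC6B (log2 1.99, 1.91 to 2.06), the argonaute gene EIF2C2 (log2 1.79, 1.66 to 1.93) and DICER1 (log2 1.26, 1.21 to 1.3). TET1 and these 3 genes were each above control with thalidomide alone and below it with the donor alone. mRNA length and RNA quality were not measured here, and their part in these ratios was not tested.

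The largest gains in level, in CPM, were moderate as ratios. DYNC1H1, the cytoplasmic dynein heavy chain, gained most, with 1143 CPM in control and 2102 in the combination (log2 0.88, 0.87 to 0.89), followed by HBZ, the spectrin gene SPTBN1 (0.66), the chaperones HSP90AA1 (0.38) and HSP90B1 (0.47), and fibronectin FN1 (0.38), none of them past the rule. Among the losses HBAA was first. EEF1A, a translation elongation factor, had 20676 CPM in control and 13527 in the combination (log2 -0.61, -0.62 to -0.61). GAPDH, a glycolytic enzyme, had 9153 CPM in control and 5703 in the combination (log2 -0.68, -0.69 to -0.68). Ribosomal proteins took 9.62% of reads in control, 5.50 with thalidomide, 9.49 with spermine NONOate and 5.29 in the combination. Haemoglobins took 2.56% of reads in control, 0.601 with thalidomide, 2.45 with spermine NONOate and 1.03 in the combination. The share of ion channels was 0.0650% of reads in control, 0.118 with thalidomide, 0.0842 with spermine NONOate and 0.138 in the combination. The exact 95% interval of the last share is 0.137% to 0.138%, for counting error only.

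**Figure D4:**
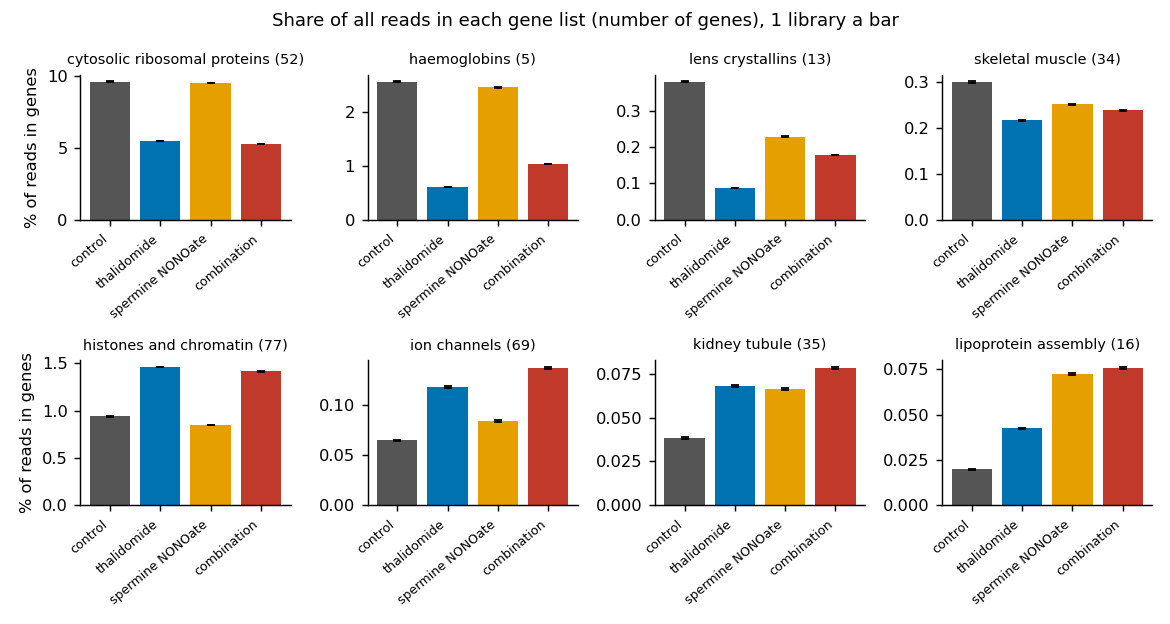
Share of all reads in genes taken by 8 gene lists (vertical axis in %, from 0) in each of the 4 libraries, with exact 95% binomial intervals for counting error. Ribosomal protein shares are low in both libraries that received thalidomide (5.50% and 5.29%) and higher in the other 2 (9.62% and 9.49%), while lipoprotein assembly genes are highest in the 2 libraries that received spermine NONOate.

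Few genes set the combination apart from all 3 other libraries. By the rule of size against each of them in turn, 36 genes (0.296%) were highest and 22 (0.181%) lowest in the combination. Comparisons of this kind share the combination library. LECT2, a secreted leukocyte attractant, stood at 0.437 CPM in control, 0.652 with thalidomide, 0.401 with spermine NONOate and 2.38 in the combination (log2 2.43, 1.90 to 3.04). BG2, a cell surface protein of the chicken major histocompatibility complex, stood at 4.74 CPM in control, 6.05 with thalidomide, 5.04 with spermine NONOate and 18.1 in the combination (log2 1.93, 1.76 to 2.11). ERBB4, a neuregulin receptor, stood at 14.7 CPM in control, 17.7 with thalidomide, 16 with spermine NONOate and 38.8 in the combination (log2 1.40, 1.3 to 1.51). In these genes the 3 other libraries lay close to each other and the combination alone was high. MAOB, which breaks down amines, stood at 9.07 CPM in control, 9.89 with thalidomide, 9.34 with spermine NONOate and 21.6 in the combination (log2 1.25, 1.12 to 1.38). GFRA3, a receptor for the neurotrophic factor artemin, stood at 1.63 CPM in control, 6.12 with thalidomide, 7.53 with spermine NONOate and 15.9 in the combination (log2 3.29, 3.02 to 3.58), where the single treatments were already above control.

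Among the genes lowest in the combination, UCN3, a peptide of the corticotropin-releasing hormone family, stood at 3.61 CPM in control, 2.21 with thalidomide, 4.53 with spermine NONOate and 0.476 in the combination (log2 -2.90, -3.46 to -2.42). NEK3, a NIMA-related kinase, stood at 36.3 CPM in control, 39.0 with thalidomide, 50.3 with spermine NONOate and 10.9 in the combination (log2 -1.73, -1.84 to -1.62). TCEANC, a protein with a transcription elongation factor domain, stood at 22.1 CPM in control, 20 with thalidomide, 28.8 with spermine NONOate and 7.51 in the combination (log2 -1.56, -1.70 to -1.42). In all 3 the combination lay below the range of the other libraries. DYX1C1, an assembly factor of ciliary dynein arms, stood at 16.8 CPM in control, 16.6 with thalidomide, 25.8 with spermine NONOate and 8.26 in the combination (log2 -1.02, -1.16 to -0.88). DAZL, a germ cell RNA-binding protein, stood at 1.94 CPM in control, 2.48 with thalidomide, 1.94 with spermine NONOate and 0.927 in the combination (log2 -1.06, -1.50 to -0.65). TMPRSS7, a membrane serine protease, stood at 1.94 CPM in control, 1.77 with thalidomide, 4.49 with spermine NONOate and 0.772 in the combination (log2 -1.32, -1.79 to -0.88).

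**Figure D5:**
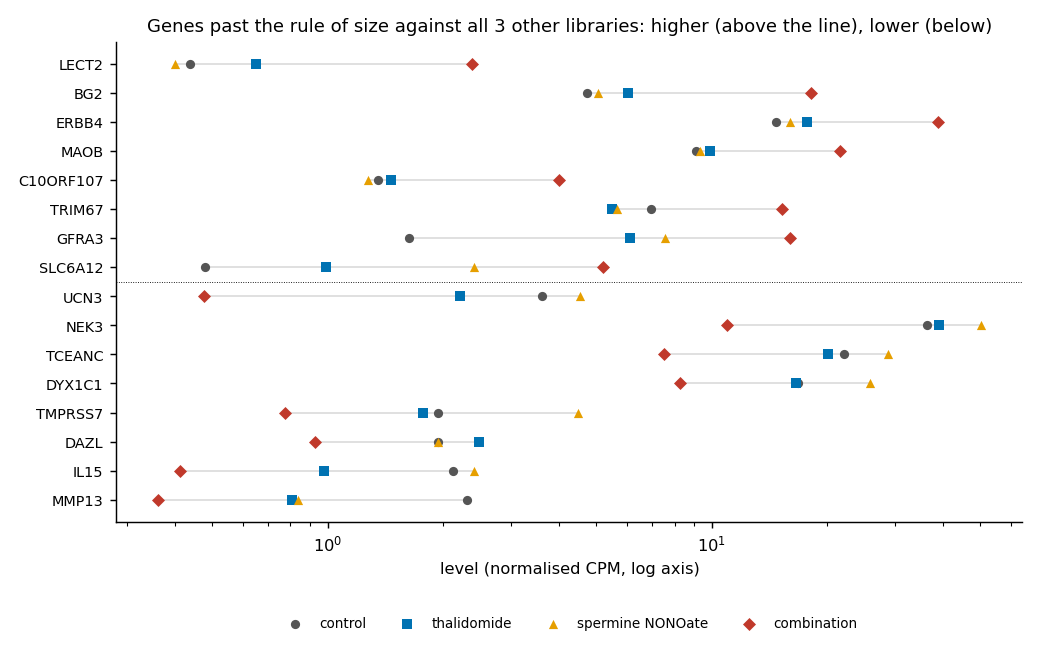
Level of 8 genes highest and 8 lowest in the combination against all 3 other libraries (horizontal log axis, normalised CPM), with the 4 libraries marked as control (grey circle), thalidomide (blue square), spermine NONOate (orange triangle) and combination (red diamond). The combination lies right of all others above the dotted line and left of all others below it.

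Presence and absence were rare. Of the tested genes 10 had no read in control and 2 none in the combination. DUOXA1, a maturation factor of dual oxidase, had 0 reads in control, 27 with thalidomide, 0 with spermine NONOate and 42 in the combination, at least 13.2-fold higher. That symbol is borne by 2 entries, and these reads are of the entry with more reads. CLDN16, a claudin of the thick ascending limb of the kidney, had 0 reads in control, 54 with thalidomide, 1 with spermine NONOate and 27 in the combination, at least 8.48-fold higher. Both had reads in the libraries that received thalidomide and at most 1 read in the others. IGHV6-1, an immunoglobulin segment, had 20 reads in control, 4 with thalidomide, 5 with spermine NONOate and 0 in the combination, at least 7.07-fold lower. All tested genes with an unadjusted p under 0.05 in the authors' deposited table were also past the rule of size here, in the same direction. Those p-values rest on the same 2 libraries, so the overlap is not an independent check.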

How the data were processed

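RNA of whole chick embryos was extracted with Trizol and sequenced on an Illumina platform, per the labels' protocols. Reads were mapped with TopHat2 2.0.8 to galGal4, and DESeq was named for the comparison, per the submitters' processing notes. Neither the counting tool nor a strand setting is named there, so reads of antisense or overlapping genes may be mixed. The authors deposited 1 table of counts per gene with Ensembl release 75 annotation, per the file headers. It also holds the authors' fold ratio and p-value for each pair of libraries, of which the unadjusted p-value is used once above. Rows on chromosomes 1 to 21 were used, and other rows were not analysed here.

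The libraries hold 62576258 to 79359076 reads in genes. Normalised CPM were computed with TMM effective library sizes (edgeR 4.0.16 in R 4.3.3) from genes with 20 or more reads in either compared library. Log2 ratios have 0.5 reads added, and intervals are exact conditional binomial ones (scipy 1.17.1), for counting error only. Because each group has 1 library, no test was made between conditions. The calling procedure was tested on simulated data with planted changes and counting error only. The simulation held no spread between embryos or libraries, so it cannot show how the calls fare under such spread. The smallest ratio against a library without reads used a floor of 3 counts.

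The 65 gene lists (2095 named genes, 2045 found, 2004 tested, 42 of the found by an older symbol in RefSeq GRCg7b) and the comparison itself were chosen with earlier results of these data known. After the values were seen, 1 gene that was lower and encodes no carrier was taken out of the plasma carriers. Named genes are the 12 furthest from no change in each direction by interval bound at 100 or more reads, up to 4 called members of each list in each direction, the 6 largest gains and losses in CPM, the 8 most distinct from all 3 other libraries in each direction, up to 4 genes a direction without reads in 1 library, and 9 genes tied to the agents. Some genes that meet these rules are not reported here. Further list members were named after their values were seen. Alternatives were other scalings, read minimums, folds, added reads, and calls without the interval.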

Additional observations from a re-analysis of the deposited data

How the results depend on the processing

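With 1 library per group no replicate could be left out. No paired analysis was possible because each group has a single library. Under scaling to total counts the number of lower genes was 255 in place of 500, since every log2 ratio rose by 0.22, and 1826 genes were higher in place of 1238. A 1.5-fold rule gave 2541 higher and 1876 lower genes, and a 4-fold rule 237 and 51. DESeq2 size factors (1204 and 512), upper quartile scaling (1256 and 491), TMM over the 2 libraries alone (1238 and 500), TMM without the 50 most abundant genes (1230 and 502), minimums of 50 reads (1108 and 442), 100 reads (1000 and 390) or none (1331 and 534), 1 read added (1232 and 496) and no interval (1245 and 502) stayed within 1.5 times. Of 249 named genes that were called, 200 kept their call under all 5 scalings, 144 of 148 higher and 56 of 101 lower ones. The medians of 12 of the 65 lists changed sign under scaling to total counts, among them WNT, retina, tendon and chaperones. Under the same scaling 46 counts of called list members moved, either by more than 1.5 times or to or from 0. The adjustment for protein length was not run, because no protein table was used here. Counting intervals are narrow for abundant genes and wide for genes of few reads, and the spread between embryos of a group is unknown.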

Other observations

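Chromosome 16, which carries the chicken major histocompatibility complex, held the largest share of genes higher in the combination among chromosomes 1 to 21. Of its 53 tested genes 32.1% were higher and 9.43% lower, with a median log2 ratio of 0.35, while the other chromosomes had between 5.81% and 13% higher. With thalidomide alone 13.2% of them were higher than control, and with the donor alone 15.1%, against at most 12.2% and 7.01% on the other chromosomes. Chromosomes were not matched for level, and many genes of chromosome 16 had few reads. In the low level classes 1 to 3 of all genes, 15.9% to 26% were higher and 4.6% to 11.7% lower in the combination. Of the 17 higher genes 11 carry no symbol. A list of 20 tested genes chosen for the complex did not share the direction, with 4 higher, 3 lower and a median of -0.49. Its shares were 20% higher and 15% lower, against 10.2% and 4.11% over all genes. The list does not cover every named gene of the chromosome. TRIM39.2 (1.14) and CLEC2B (1.01), both called higher there, are not in it. B-NK, a C-type lectin-like receptor of natural killer cells, had 4 reads in control, 26 with thalidomide, 7 with spermine NONOate and 56 in the combination (log2 3.56, 2.29 to 5.65). YFV, a class I gene of the complex, had 419 reads in control, 797 with thalidomide, 417 with spermine NONOate and 1036 in the combination (log2 1.22, 1.06 to 1.39). Both were highest in the combination. B-G, another member of the complex, had 1325 reads in control, 4554 with thalidomide, 3981 with spermine NONOate and 3148 in the combination (log2 1.16, 1.07 to 1.26) and was high in all 3 treated libraries. Lower members were the peptide loading gene TPN (-1.18), the class II chaperone gene DMB2 (-1.02) and the tenascin gene TNXB (-1.29). Genes of this region have near-identical copies and are variable between chickens, so counts can be split between them, and their genotype was not measured.

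Runs of neighbouring genes called in the same direction were counted. Genes without a symbol or a place were skipped, so neighbours here are consecutive placed genes. In the gene order of RefSeq assembly GRCg7b, with 8795 genes placed by name, 9 runs of 3 or 4 neighbours were called in the same direction. The clotting genes PROZ, F10 and F7 were a higher run on chromosome 1, and so were the sodium channel genes SCN9A and SCN1A with B3GALT1 on chromosome 7. The lower runs were TNNT3, TNNI2 and SYT8 on chromosome 5 and CRYBA2, WNT10A and WNT6 on chromosome 7. Neighbours can be duplicated relatives, and no rate of such runs in other data was set beside these. With 10.2% of all genes higher and 4.11% lower, some runs can arise in any gene order. Their number in random order was not worked out, so the 9 runs do not show that neighbours differed together.

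Hormone and neuropeptide genes differed in both directions, with 7 of 79 higher and 5 lower. The shares were 8.86% higher, near the 10.2% over all genes, and 6.33% lower, against 4.11%. AGT, PTH1R (1.68), IGF1R (1.22) and VIPR1 (1.01) were among the higher, and the neuropeptide genes NPY (-1.39), GAL (-1.29) and SST (-1.10) were lower. NKX2-1, a regulator of thyroid, lung and forebrain, had 18 reads in control, 177 with thalidomide, 133 with spermine NONOate and 195 in the combination (log2 3.32, 2.65 to 4.14), lowest in control. PRL, the pituitary hormone prolactin, had 4 reads in control, 18 with thalidomide, 7 with spermine NONOate and 25 in the combination (log2 2.42, 1.02 to 4.54), and the pituitary regulator PIT1 a ratio of -1.25.

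Of 13 genes known from the early embryo 5 (38.5%, against 10.2% over all genes) were higher and 0 lower. LIN28B, an RNA-binding protein that blocks let-7 processing, stood at 4.48 CPM in control, 18.3 with thalidomide, 4.38 with spermine NONOate and 12 in the combination (log2 1.42, 1.24 to 1.61), and TRIM71 had a ratio of 1.31. The cell cycle list held 2 higher genes of 58 (3.45%, below the 10.2% over all genes), ASPM (1.16) and CDK6 (1.25), with a median of 0.01. Of 97 centrosome and cilium genes 9 (9.28%, near the 10.2% over all genes) were higher, among them CEP350 (1.66) and the dynein heavy chain genes DNAH10 (1.64) and DNAH9 (1.39), and IFT20 was lower (-1.05). Of 19 genes in the gonad list 3 (15.8%) were lower and 2 (10.5%) higher. CYP11A1, which starts steroid synthesis (-1.66), KIT (-1.23) and DAZL were lower. NR5A1, a gonad and adrenal regulator (1.20), and GATA4 were higher. In the retinoid list 2 of 22 were higher and 2 lower, 9.09% each. CYP26C1 (1.48) and RPE65 were higher and ALDH6 (-1.57) and RBP3 lower. Over all genes 10.2% were higher and 4.11% lower. The retinoid median was -0.18, or 0.04 under scaling to total counts. Both acetyl-CoA carboxylase genes, ACACA (1.02) and ACACB (1.03), were higher, the called members of 31 genes of cholesterol and fatty acid synthesis. The share called higher there, 6.45%, was below the 10.2% over all genes, and the list median was 0.08.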
